A study of Mus musculus with 6 samples.

Results

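The genes described are 51 ribosome biogenesis and nucleolar factors, taken by symbol from the 21878 rows of the deposited expression files. The rule that picks them uses names and no values, but the list was proposed with earlier results of these data known. By role they comprise 7 genes of RNA polymerase I transcription, 8 of small nucleolar ribonucleoproteins (snoRNPs), 17 of 40S processing, 16 of 60S processing and 3 multifunctional nucleolar proteins. All 51 were measured in all 6 libraries and passed the filter on low values.

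Ribosome biogenesis begins in the nucleolus, where RNA polymerase I transcribes the ribosomal DNA into a long precursor RNA. SnoRNPs modify this precursor by methylation (box C/D) or pseudouridylation (box H/ACA), the small subunit processome releases the 40S precursor, and a separate set of factors matures the 60S precursor. The pathway is known for its link to growth signalling through mTOR and MYC, and in the bone marrow (BM) for inherited marrow failure, since DKC1 is mutated in dyskeratosis congenita and SBDS in Shwachman-Diamond syndrome.

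RNA-seq was performed on hematopoietic stem cells (HSCs) from the BM of WT mice, sorted as CD34-Flk2-Lineage-Sca1+c-Kit+ cells. Per the study's methods, the 3 IGF1 libraries came from mice at day 1 after a subcutaneous dose of 200 µg/kg of recombinant mouse IGF1, and the 3 control libraries from vehicle-treated mice. The labels of treatment give IGF-1 and control, whereas the extraction text of the same labels speaks of control or IR (irradiated) mice, and the treatment labels were followed. Neither the age of the mice nor whether a library came from 1 mouse or a pool was stated in the sources used here, so p-values measure the spread between libraries, which may be technical.

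Values are FPKM, fragments per gene divided by transcript length and by library size, and fold changes are IGF1 minus control of log2(FPKM + 1), where changes of low genes come out smaller than they are. Whole reads recovered from the steps of the values came to between 11206800 and 15973834 per library, and the members had between 59 and 19905 reads each in a library. Control replicate 2 stood apart from the other controls. Of genes with at least 20 reads in a pair of libraries, it was over 2-fold away from control replicates 1 and 3 in 2573 and 2587 genes, but from each IGF1 library in only 105 to 125. Control replicates 1 and 3 differed so in 1 gene and IGF1 pairs in 4 or 5. No pair agreed within sampling noise, the chi-squared per gene being 1.52 or more. Whether labels were exchanged, a batch was involved or the mice differed cannot be told apart from these files. Counts, medians and most log2 fold changes are therefore given both with control replicate 2 and without it.

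The labelled cell type was examined by its markers. Kit had 105, 31.4 and 104 FPKM in control replicates 1, 2 and 3, against 24.2 to 24.6 FPKM after IGF1. Cd34, whose protein the gate excludes, had 640, 265 and 634 FPKM in the controls, against 230 to 238 FPKM after IGF1. Flt3, which encodes the excluded Flk2, had 117 to 188 FPKM in the 6 libraries. The genes of the negative gates were thus not low. Summed over 9 B cell markers the level was 122, 498 and 121 FPKM in the controls, against 474 to 493 FPKM after IGF1. Over 11 neutrophil and monocyte markers it was 2308, 2830 and 2344 FPKM in the controls, against 2794 to 2805 FPKM after IGF1, with Mpo at 1613 to 1705 FPKM throughout. Sums over 12 HSC markers were 493, 733 and 508 FPKM in the controls, against 480 to 496 FPKM after IGF1. For 7 T and NK cell markers the sum ran from 387 to 819 FPKM, of which Nkg7 held 356 to 787 FPKM, with Cd3e at or near 0. Those of 9 erythroid, 7 megakaryocyte and platelet and 7 stromal and endothelial markers ran from 42.2 to 114 FPKM, 59.1 to 109 FPKM and 26.3 to 50.3 FPKM, with control replicate 2 the highest for the erythroid sum and the stromal and endothelial genes Lepr and Cdh5 at or near 0. The B cell, T and NK cell, neutrophil and monocyte, megakaryocyte and platelet, and stromal and endothelial sums moved with control replicate 2 and IGF1, the last of them downward. The neutrophil and monocyte sum was higher through Elane, at 92.8, 576 and 92.4 FPKM in the controls, against 692 to 709 FPKM after IGF1, and Ly6c2, at 26.7, 379 and 29.6 FPKM in the controls, against 340.4 to 347 FPKM after IGF1. S100a8, S100a9, Ngp, Camp, Ltf, Lcn2 and Fcnb of the same list were lower in control replicate 2 and in all IGF1 libraries than in control replicates 1 and 3. The part of these markers in the results on the members was not tested. In bulk samples fewer cells of a type and less RNA per cell cannot be told apart.

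Among the 51 members, 6 fell after IGF1 and 0 rose. Calls needed a change of over 2-fold and a limma adjusted p under 0.05, which 4.63% of the 10449 genes tested passed as lower and 1.98% as higher. The 6 were Tsr1, Ltv1 and Ddx10 of 40S processing, Rrn3 and Polr1b of RNA polymerase I, and Dkc1 of the snoRNPs. With the adjusted p alone 10 members passed, all lower, where 20.4% of all genes passed in either direction. These 4 more were Gnl3, Nip7, Utp20 and Polr1e, the last of which was named after its values were seen. At an unadjusted p under 0.05 limma gave 26 members lower and 2 higher, 28 of 51, where 53.4% of all genes passed in either direction. With control replicate 2 left out, 19 members fell and 1 rose, Polr1d, where 20.6% of all genes were called lower and 12.3% called higher. All 6 members called with every library were among the 19.

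The members' median log2 fold change was -0.54, against -0.18 for all genes tested, with 40 members below 0 and 11 above. Scaling moved both medians together, and with scaling to the 75th percentile they became -0.21 and 0.13, so that 18 members lay above 0. The members' median lay 0.36 below that of all genes with the deposited scaling (a difference of -0.36), and the difference was between -0.35 and -0.34 with 3 other scalings. Leaving out control replicate 2 gave a members' median of -0.85 and an all-gene median of -0.24. The IGF1 libraries lay below all 3 controls in 27 members, a pattern that 37.4% of all genes had, and above all 3 controls in 5 members, where the share of all genes was 21.9%. For these 32 members the 2-sided exact permutation test gave p = 0.1, the smallest that 3 libraries against 3 allow.

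**Figure D1:**
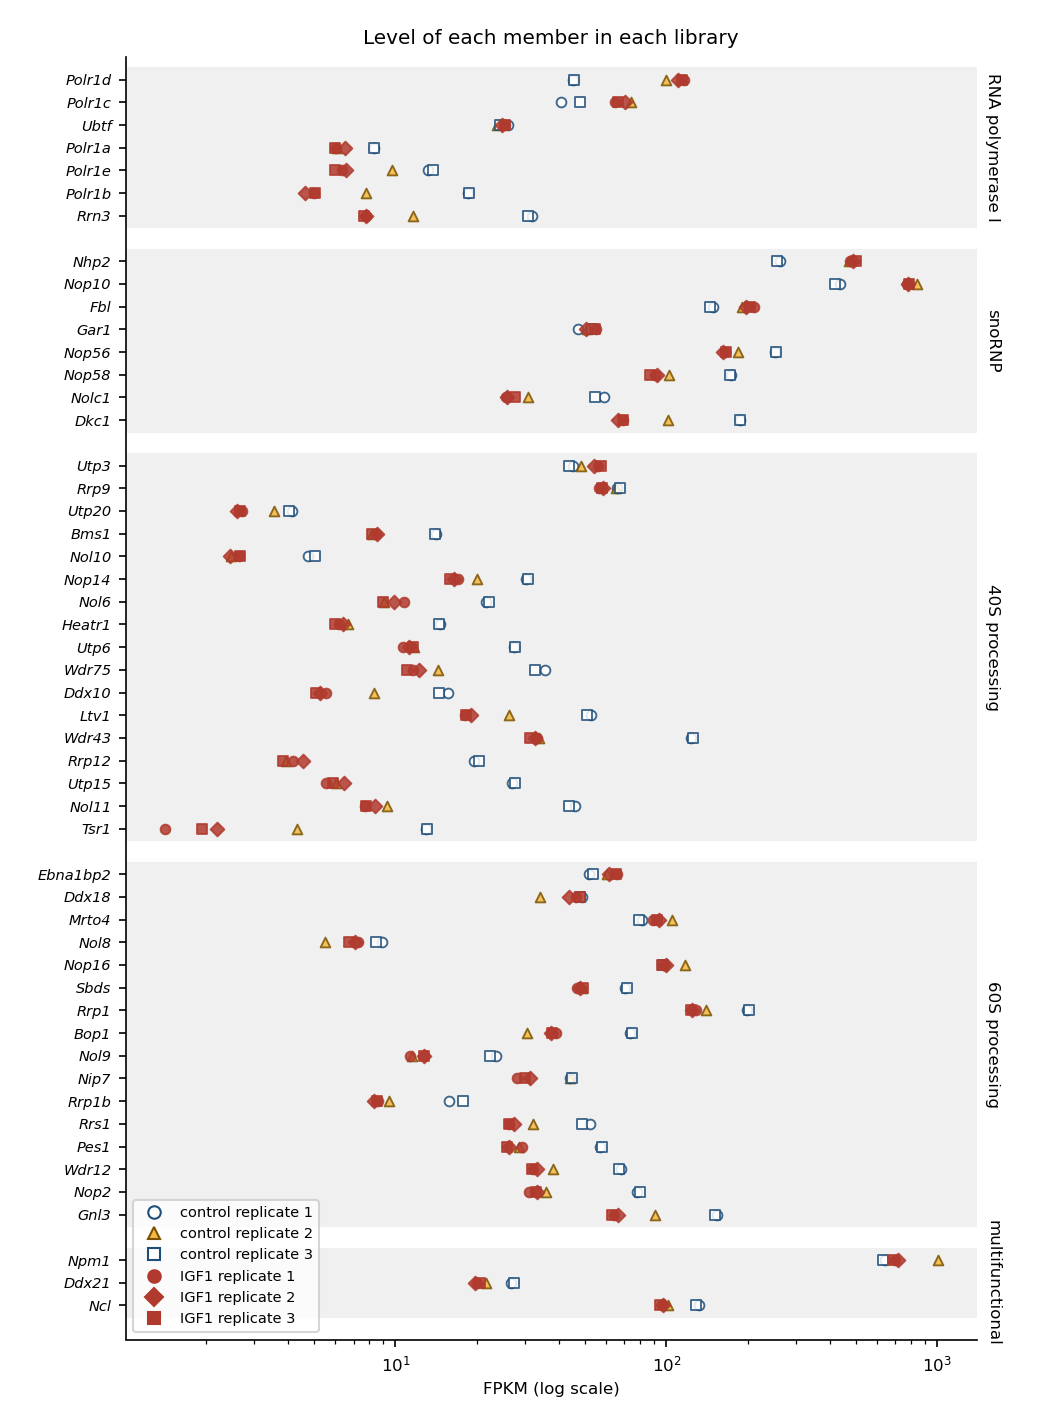
Level of each of the 51 members in each of the 6 libraries, as FPKM on a log axis, grouped by role and ordered by log2 fold change; open circles and squares are control replicates 1 and 3, triangles control replicate 2 and filled red symbols the IGF1 libraries. Control replicate 2 lies nearer to the IGF1 libraries than to the other controls in 45 members and nearer to the other controls in 6.

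The plot of levels by library shows the place of control replicate 2. In 45 members it lay nearer to the IGF1 mean than to the mean of control replicates 1 and 3, and in 6 nearer to the controls. It was the highest library of all in 5 members and the lowest in 4. As medians over the members, control replicates 1, 2 and 3 lay 0.82, 0.14 and 0.82 above the IGF1 mean on the log2(FPKM + 1) scale.

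Promoter sequence was examined for letters that the members share. RefSeq windows of 250 bases before to 50 bases after the annotated start (GRCm38.p6) were matched for 43 of the 51 members. The E-box CACGTG, the letters that MYC and MAX are known to bind and the same on both strands, occurred in 8 of the 43 (18.6%), against 12.2% of tested genes and 8.1% of all genes with a window. The ETS letters CCGGAAGT, searched on both strands and sharing no letters with the E-box matches shown, occurred in 13 of the 43 (30.2%), against 10.1% of tested genes and 4.3% of all genes. The E-box sites are shown because the 8 genes that hold them include 3 of the called genes, with the E-box in capitals and each sequence read 5′ to 3′ on the gene's strand.
Tsr1, chr11:74898092-74898121, plus strand: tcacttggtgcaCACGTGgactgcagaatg
Rrn3, distal, chr16:13780472-13780501, plus strand: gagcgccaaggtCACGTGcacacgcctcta
Rrn3, proximal, chr16:13780639-13780668, plus strand: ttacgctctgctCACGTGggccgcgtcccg
Ltv1, chr10:13193092-13193121, minus strand: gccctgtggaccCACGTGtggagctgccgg
Nol11, chr11:107189407-107189436, minus strand: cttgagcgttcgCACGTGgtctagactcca
Nop2, chr6:125131811-125131840, plus strand: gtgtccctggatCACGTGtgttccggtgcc
Pes1, chr11:3963965-3963994, plus strand: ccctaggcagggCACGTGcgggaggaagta
Utp20, chr10:88826765-88826789, minus strand: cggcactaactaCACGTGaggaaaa
Wdr43, chr17:71616220-71616249, plus strand: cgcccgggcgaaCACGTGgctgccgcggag

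With the annotated start as position 0, the E-box began at 24 in Tsr1, -215 and -48 in Rrn3, 28 in Ltv1, -43 in Nol11 and -60 in Nop2. Members with an E-box had a median log2 fold change of -1.21, and the 35 with a window but no E-box had -0.46 (-1.67 and -0.62 without control replicate 2). All 8 with an E-box were below 0 and 3 were called, and of the 35 without one 25 were below 0 and 3 were called. All 8 have 1410 or more coding bases. Over all tested genes the corresponding medians were -0.25 for 991 genes with and -0.17 for 7151 genes without the letters. Members with and without the ETS letters had medians of -0.46 and -0.59 (-0.68 and -0.85 without control replicate 2). Tsr1, Rrn3 and Ltv1 held both kinds of letters. The ETS sites of these 3 called genes and of Nip7, a member whose control libraries all lay together, follow with the ETS letters of either strand in capitals.
Tsr1, chr11:74898068-74898097, plus strand: ctcgggtccgcCCGGAAGTagagttcactt
Rrn3, chr16:13780682-13780711, plus strand: tctgcagcgccACTTCCGGggcgggtaggt
Ltv1, distal, chr10:13193217-13193246, minus strand: agccccacctcCCGGAAGTccccgggaagg
Ltv1, proximal, chr10:13193175-13193204, minus strand: gggctcacgcaACTTCCGGctacagcctag
Nip7, chr8:107056763-107056792, plus strand: gctttcggtccCCGGAAGTccgccacggta

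A match of letters is a description of the window and not a measured binding site.

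**Figure D2:**
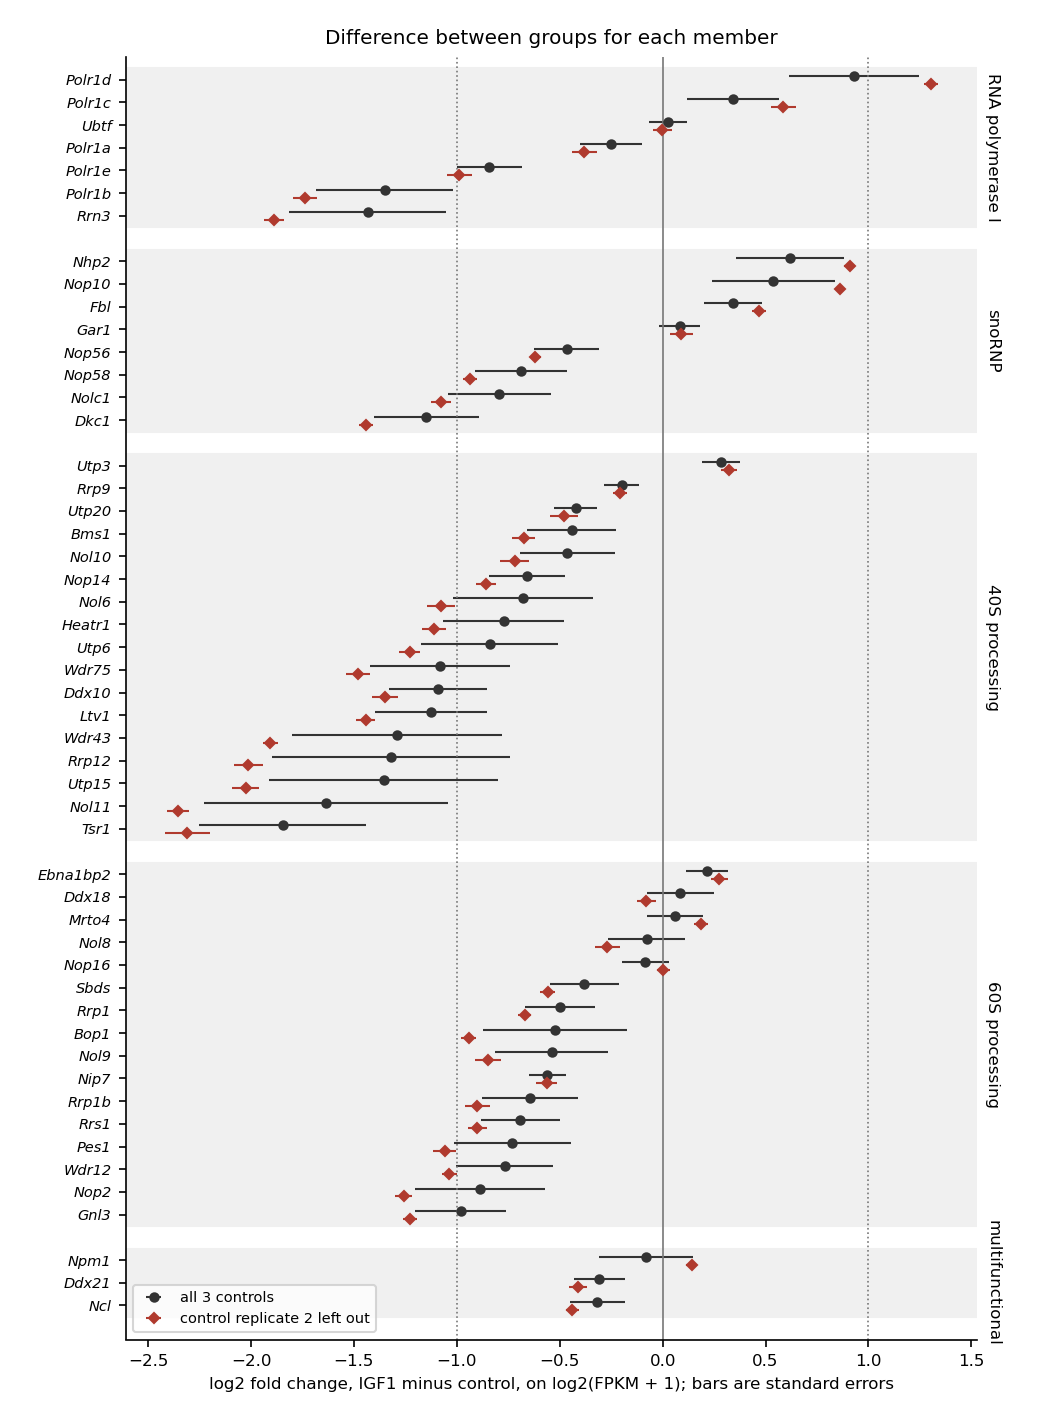
Log2 fold change of each member, IGF1 minus control on log2(FPKM + 1), with standard errors as bars; black circles use all 3 controls and red diamonds leave out control replicate 2, and dotted lines mark a 2-fold change. Without control replicate 2 the 40S processing genes reach a median of -1.23 and Polr1d lies at 1.30.

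RNA polymerase I genes had log2 fold changes of both signs. Of 7, Rrn3 and Polr1b fell and 0 rose, with a median of -0.25 (-0.38 without control replicate 2, where Polr1d rose as well). Rrn3 (chr16:13780708-13814839, plus strand), which brings the polymerase to the ribosomal DNA promoter, had 32.0, 11.6 and 30.8 FPKM in control replicates 1, 2 and 3, against 7.80, 7.80 and 7.65 FPKM in IGF1 replicates 1, 2 and 3. All 3 IGF1 libraries lay below the controls, with control replicate 2 closest to them. Its log2 fold change was -1.43 (standard error 0.38, limma adjusted p = 0.0487) and -1.89 without control replicate 2. The call ended with TMM scaling (limma adjusted p = 0.0504), no filter (0.0603), a pseudocount of 5 (0.0533) and limma voom on recovered reads (0.051). It also ended with length and GC trends removed (log2 fold change -0.84). Polr1b (chr2:129100995-129126594, plus strand), the second-largest subunit, had 18.6, 7.77 and 18.7 FPKM in the controls, against 5.01, 4.64 and 5.03 FPKM after IGF1. The groups did not overlap, and the log2 fold change was -1.35 (standard error 0.33, limma adjusted p = 0.0457) and -1.74 without control replicate 2. With no filter its limma adjusted p was 0.0545, and with a pseudocount of 5 it was 0.0502 at a log2 fold change of -0.96. Each of these ended the call.

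Polr1d, a small subunit shared with RNA polymerase III, had 45.3, 99.6 and 45.5 FPKM in the controls, against 116, 111 and 114 FPKM after IGF1. The IGF1 libraries were the highest and control replicate 2 came next, for a log2 fold change of 0.93 (standard error 0.32, limma adjusted p = 0.0674) and 1.30 without control replicate 2. Polr1c, the other subunit shared with RNA polymerase III, had 40.9, 74.3 and 48.0 FPKM in the controls, against 64.9, 70.2 and 66.3 FPKM after IGF1. Here control replicate 2 was the highest library, and the log2 fold change of 0.34 was 0.59 without it. Polr1a, the largest subunit, had 8.35, 6.11 and 8.32 FPKM in the controls, against 6.03, 6.501 and 5.99 FPKM after IGF1, with overlapping groups (log2 fold change -0.25, limma adjusted p = 0.202, and -0.38 without control replicate 2). Its sign turned with scaling to the 75th percentile, at 0.06. Ubtf, which binds and opens the ribosomal DNA, had 25.9, 23.7 and 24.4 FPKM in the controls, against 25.3, 24.8 and 25.3 FPKM after IGF1. Its groups overlapped, and its log2 fold change was 0.03 (standard error 0.09, limma adjusted p = 0.82).

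The snoRNP genes had both signs within a complex. Of 8 genes Dkc1 alone fell, 0 rose, and the median was -0.19 (-0.26 without control replicate 2, where Nolc1 fell too). Dkc1 (chrX:75095854-75109777, plus strand), the pseudouridine synthase of H/ACA snoRNPs and of telomerase, had 186, 101 and 187 FPKM in the controls, against 69.0, 66.2 and 69.1 FPKM after IGF1. The groups lay apart, and the log2 fold change was -1.15 (standard error 0.26, limma adjusted p = 0.0412) and -1.44 without control replicate 2. With length and GC trends removed it was -0.41 (-0.46 without control replicate 2 as well), and it was -0.99 with TMM and -0.80 with 75th percentile scaling, each of which ended the call. Its partners in the H/ACA core lay above 0, save for Nop10 with quantile normalization (-0.18) and Gar1 with length and GC trends removed (-0.38). Nhp2 had 263, 473 and 256 FPKM in the controls, against 477, 487 and 499 FPKM after IGF1. All IGF1 libraries were above the controls, narrowly so for control replicate 2, at a log2 fold change of 0.62 (standard error 0.26, limma adjusted p = 0.102), and 0.91 without that library. Nop10 had 439, 841 and 418 FPKM in the controls, against 775, 778 and 784 FPKM after IGF1, so control replicate 2 was the highest library (log2 fold change 0.54, limma adjusted p = 0.174, and 0.86 without it). Gar1 had 47.3, 51.04 and 53.0 FPKM in the controls, against 55.2, 50.5 and 54.7 FPKM after IGF1, with overlapping groups and a log2 fold change of 0.08 (0.09 without control replicate 2).

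Of the box C/D proteins, the methyltransferase Fbl had 149, 191 and 145 FPKM in the controls, against 210, 197 and 204 FPKM after IGF1. IGF1 libraries were above all controls at a log2 fold change of 0.34 (limma adjusted p = 0.0969), which was 0.47 without control replicate 2 and -0.15 with length and GC trends removed. Nop56, a core scaffold protein, had 251, 184 and 254 FPKM in the controls, against 164, 162 and 165 FPKM after IGF1. It was thus below the controls, at a log2 fold change of -0.47 (limma adjusted p = 0.067, and -0.62 without control replicate 2). Nop58, its paralogue in the complex, had 174, 103 and 172 FPKM in the controls, against 90.5, 91.9 and 87.2 FPKM after IGF1, with groups apart and a log2 fold change of -0.69 (limma adjusted p = 0.0624, and -0.94 without control replicate 2). Nolc1, a chaperone of snoRNPs, had 58.7, 30.9 and 54.7 FPKM in the controls, against 25.6, 25.8 and 27.6 FPKM after IGF1. The groups did not overlap, and its log2 fold change of -0.79 became -1.08 without control replicate 2.

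Ratios of 2 genes within a library do not depend on scaling between libraries, but the genes of a pair can differ in length and GC content. The ratio of Dkc1 to Nhp2 was 0.709, 0.214 and 0.732 in control replicates 1, 2 and 3 and 0.145, 0.136 and 0.139 after IGF1. For Polr1b to Polr1d it was 0.410, 0.0780 and 0.410 in the controls and 0.0432, 0.0420 and 0.0441 after IGF1. In both, control replicate 2 lay between the groups and close to IGF1. The ratio of Nop58 to Fbl was 1.17, 0.537 and 1.18 in the controls and 0.431, 0.466 and 0.427 after IGF1. With length and GC trends removed the log2 fold changes of the first pair were -0.41 for Dkc1 and 0.15 for Nhp2, against -1.15 and 0.62 before. For the second pair they became -1.03 for Polr1b and 0.59 for Polr1d, and for the third -0.55 for Nop58 and -0.15 for Fbl. The subunits of the PeBoW complex of 60S processing kept nearer to one ratio in the deposited values. Bop1 to Pes1 stood at 1.29, 1.07 and 1.29 in the controls and 1.34, 1.43 and 1.47 after IGF1, and Wdr12 to Pes1 at 1.2, 1.33 and 1.15 in the controls and 1.10, 1.27 and 1.23 after IGF1.

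**Figure D3:**
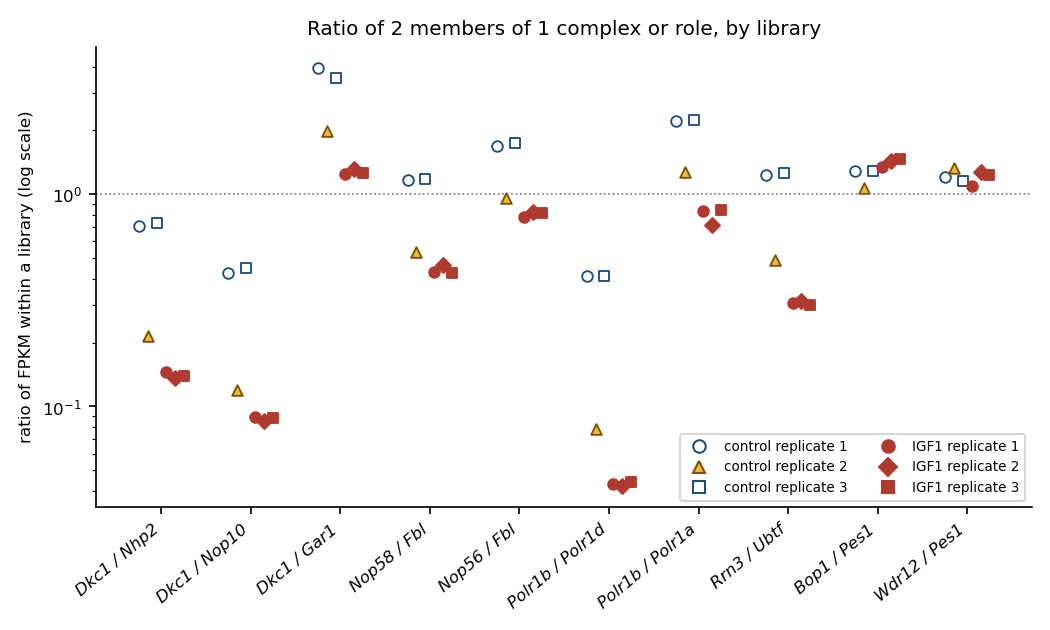
Ratio of the FPKM of 2 members within each library on a log axis, for pairs in 1 complex or role; symbols mark the 6 libraries as in the plot of levels. Dkc1 to Nhp2 runs from 0.732 in control replicate 3 to 0.136 in IGF1 replicate 2, while Wdr12 to Pes1 stays between 1.10 and 1.33.

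The 40S processing genes had the lowest median of the roles, -0.84, with 16 of 17 below 0. Tsr1, Ltv1 and Ddx10 fell with all libraries and 11 of the 17 fell without control replicate 2, where the median was -1.23. With scaling to the 75th percentile 15 of 17 stayed below 0, at a median of -0.51. Summed over the role, the level was 560, 282 and 558 FPKM in control replicates 1, 2 and 3, against 258, 260 and 256 FPKM after IGF1.

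Tsr1 (chr11:74898071-74909342, plus strand), a GTPase-like factor of late 40S precursors, had the lowest log2 fold change of the members in the fit behind the calls. It had 12.9, 4.33 and 13.1 FPKM in the controls, against 1.41, 2.19 and 1.92 FPKM after IGF1. The IGF1 libraries lay below all controls at a log2 fold change of -1.85 (standard error 0.41, limma adjusted p = 0.0412), and -2.31 without control replicate 2, where Nol11 was lower still. With length and GC trends removed it was -1.25, and Rrp12, at -1.29, was then the lowest. Nol11 was lower with a pseudocount of 5 (-1.34 against -1.08 for Tsr1) and with library weights (-2.36 against -2.31). Ltv1 (chr10:13178140-13193168, minus strand), which accompanies the 40S precursor to the cytoplasm, had 52.8, 26.3 and 50.8 FPKM in the controls, against 18.01, 19.0 and 18.2 FPKM after IGF1. Its groups lay apart at a log2 fold change of -1.13 (standard error 0.27, limma adjusted p = 0.0446), and -1.44 without control replicate 2. With length and GC trends removed it was -0.53, and quantile, 75th percentile and TMM scaling left it between -0.98 and -0.79, all short of 2-fold. The call also ended with a pseudocount of 5 (log2 fold change -0.993) and with no filter (limma adjusted p = 0.0528). Ddx10 (chr9:53098635-53248053, minus strand), a DEAD-box helicase, had 15.7, 8.36 and 14.5 FPKM in the controls, against 5.54, 5.26 and 5.09 FPKM after IGF1. The groups did not overlap, at a log2 fold change of -1.09 (standard error 0.24, limma adjusted p = 0.0409), and -1.35 without control replicate 2. With length and GC trends removed it was -0.34, and with quantile, 75th percentile and TMM scaling it lay between -0.95 and -0.78, and with a pseudocount of 5 at -0.77, so that each of them ended the call.

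Nol11, a component of the early processome that also takes part in ribosomal DNA transcription, had 45.9, 9.31 and 43.7 FPKM in the controls, against 7.70, 8.37 and 7.77 FPKM after IGF1. With control replicate 2 next to the IGF1 libraries, its log2 fold change of -1.64 had a standard error of 0.59 and a limma adjusted p of 0.0746. Without that library it was -2.36 (standard error 0.05). Heatr1, of the same early subcomplex, had 14.6, 6.68 and 14.4 FPKM in the controls, against 6.18, 6.40 and 5.998 FPKM after IGF1, a log2 fold change of -0.77 (-1.11 without control replicate 2). Bms1, a GTPase of the processome, had 14.1, 8.22 and 13.96 FPKM in the controls, against 8.50, 8.55 and 8.16 FPKM after IGF1, with control replicate 2 among the IGF1 libraries and a log2 fold change of -0.44 (-0.68 without it). Utp20, a large scaffold protein, had 4.16, 3.55 and 4.06 FPKM in the controls, against 2.72, 2.60 and 2.68 FPKM after IGF1. There control replicate 2 lay nearer to the other controls, and the log2 fold change was -0.42 (standard error 0.11, limma adjusted p = 0.0459) and -0.48 without it. Utp3, also of the processome, was the exception to the direction of the role, with 45.1, 48.3 and 43.8 FPKM in the controls, against 56.0, 54.1 and 57.5 FPKM after IGF1. Its log2 fold change was 0.28 (limma adjusted p = 0.0626), and 0.32 without control replicate 2.

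Of the 60S processing genes 13 of 16 lay below 0, with 0 called in either direction and a median of -0.53. At an adjusted p alone Gnl3 and Nip7 passed. Without control replicate 2, 4 fell (Nop2, Pes1, Wdr12 and Gnl3) and the median was -0.76. The summed level was 1125, 832 and 1125 FPKM in the controls, against 752, 754 and 750 FPKM after IGF1.

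Gnl3, which encodes the nucleolar GTPase nucleostemin, had 153, 90.6 and 151 FPKM in the controls, against 64.1, 66.2 and 62.7 FPKM after IGF1. The IGF1 libraries lay below all controls at a log2 fold change of -0.98 (standard error 0.22, limma adjusted p = 0.0417), just inside a 2-fold change, and -1.23 without control replicate 2. Nop2, an RNA methyltransferase, had 78.1, 36.0 and 80.1 FPKM in the controls, against 31.1, 33.3 and 33.0 FPKM after IGF1 (log2 fold change -0.89, limma adjusted p = 0.0722, and -1.26 without control replicate 2). Nip7, a factor of 60S precursors, differed from most members in that the controls lay together, at 44.0, 44.2 and 45.0 FPKM, against 28.1, 31.3 and 29.97 FPKM after IGF1. Its log2 fold change was -0.56 (standard error 0.09, limma adjusted p = 0.0307), and it was -0.56 as well without control replicate 2. After removal of length and GC trends its sign turned, at 0.13.

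The PeBoW subunits had log2 fold changes near each other in the deposited values. Pes1 had 56.9, 28.5 and 57.9 FPKM in the controls, against 29.3, 26.1 and 25.8 FPKM after IGF1, so that control replicate 2 lay among the IGF1 libraries. Bop1 had 73.7, 30.6 and 74.9 FPKM in the controls, against 39.2, 37.4 and 37.9 FPKM after IGF1, with control replicate 2 the lowest of all. Wdr12 had 68.0, 38.1 and 66.8 FPKM in the controls, against 32.1, 33.2 and 31.8 FPKM after IGF1, with groups apart. Their log2 fold changes were -0.73, -0.52 and -0.77, and -1.06, -0.94 and -1.04 without control replicate 2. With length and GC trends removed they lay further apart, at -0.239, -0.476 and -0.642 (-0.379, -0.825 and -0.928 without control replicate 2 as well).

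Sbds, which frees the 60S subunit from its anti-association factor eIF6, had 70.5, 48.8 and 71.6 FPKM in the controls, against 46.8, 47.9 and 49.2 FPKM after IGF1. Control replicate 2 lay within the IGF1 libraries, and the log2 fold change was -0.38 (limma adjusted p = 0.111, and -0.56 without that library). Ebna1bp2, a nucleolar factor of early 60S precursors, had 51.9, 60.2 and 53.7 FPKM in the controls, against 65.7, 61.6 and 65.3 FPKM after IGF1 (log2 fold change 0.22, limma adjusted p = 0.127, and 0.28 without control replicate 2). Ddx18, a DEAD-box helicase, had 48.9, 34.1 and 48.2 FPKM in the controls, against 46.5, 43.6 and 47.8 FPKM after IGF1. Control replicate 2 was the lowest library, and the log2 fold change of 0.09 was -0.08 without it.

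The multifunctional nucleolar proteins had 0 of 3 genes called, with or without control replicate 2, and Npm1 reached the highest level of the members. Npm1, the chaperone nucleophosmin, had 638, 1004 and 633 FPKM in the controls, against 697, 717 and 687 FPKM after IGF1. Control replicate 2 was the highest library by far, and the log2 fold change of -0.08 (standard error 0.23, limma adjusted p = 0.776) was 0.14 without it. With quantile normalization Npm1 was at -0.87 (limma adjusted p = 0.0299). Ncl, the RNA-binding protein nucleolin, had 132, 101 and 129 FPKM in the controls, against 96.5, 97.3 and 94.4 FPKM after IGF1, a log2 fold change of -0.32 (limma adjusted p = 0.102, and -0.44 without control replicate 2). Ddx21, a helicase of ribosomal DNA transcription and processing, had 26.6, 21.5 and 27.4 FPKM in the controls, against 19.99, 19.6 and 20.5 FPKM after IGF1, a log2 fold change of -0.31 (limma adjusted p = 0.0899, and -0.41 without control replicate 2). Both lay below the controls, but with scaling to the 75th percentile all 3 genes were above 0, at 0.27 for Npm1, 0.03 for Ncl and 0.03 for Ddx21.

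The other 17 members had log2 fold changes between -1.36 and 0.06, of which 16 were below 0. Of these 0 were called with limma and 6 fell without control replicate 2, and 9 had IGF1 libraries below all controls. Their adjusted p ran from 0.0363 to 0.735.

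The sign of the members' log2 fold changes differed with the length of their coding part. Of 11 members with under 1000 coding bases, among them Nop10, Polr1d, Nhp2, Fbl and Npm1, 7 lay above 0, at a median log2 fold change of 0.08. The 17 members of 1000 to 2000 bases had a median of -0.73, and of 23 with 2000 bases or more 22 lay below 0, at a median of -0.66. Without control replicate 2 these medians were 0.19, -0.99 and -0.94. With every library, all tested genes in the same classes had medians of 0.11, -0.36 and -0.23. Spearman's rho over the 51 members, which share the 6 libraries, was -0.43 with coding length and 0.34 with GC content, and over 10053 tested genes -0.21 and 0.40. Trends on GC content and on the length of the whole transcript, not of its coding part, took up 34.3% of the variance of the difference across genes. With them removed in each library, 38 members lay below 0 at a median of -0.38, and Polr1b and Tsr1 stayed called. Spearman's rho with coding length was then -0.28 over the members and -0.08 over all tested genes with a coding transcript. The summed FPKM of all rows, which rises when short transcripts take more of a library, was 466619, 635111 and 466135 in the controls and 677826 to 680285 after IGF1. Whether RNA integrity or fragment selection had a part in this was not tested.

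**Figure D4:**
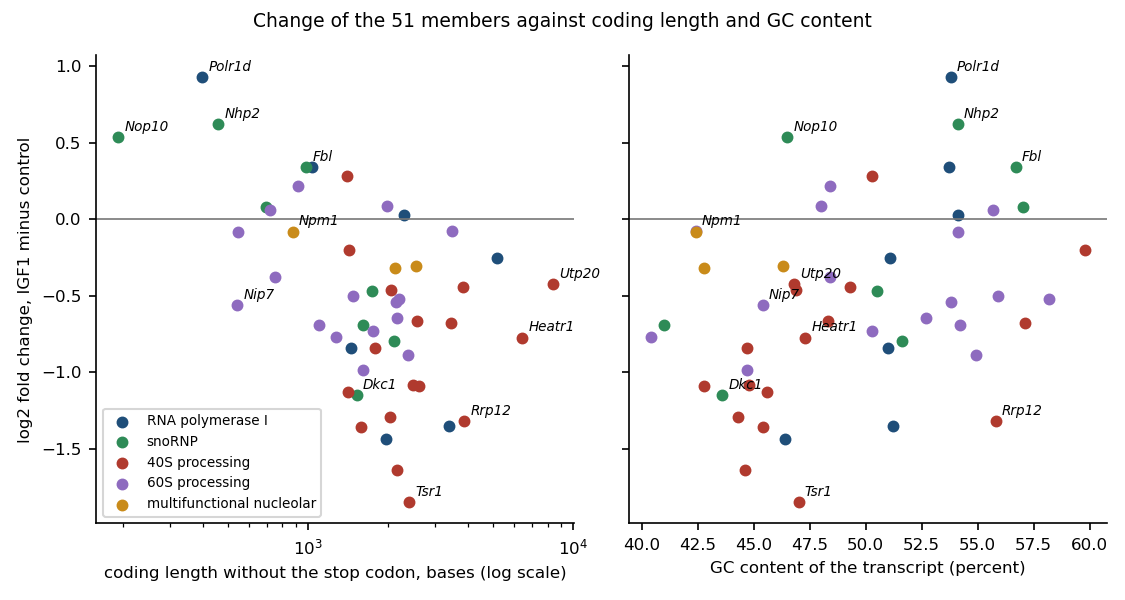
Log2 fold change of the 51 members against coding length in bases (log axis, left) and GC content of the transcript in percent (right), coloured by role. Members under 1000 coding bases have a median of 0.08 and those of 2000 bases or more a median of -0.66.

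Of the members 7 (Nop56, Nop58, Dkc1, Wdr43, Tsr1, Gnl3 and Ncl) carry annotated snoRNA genes inside them, 21 in all. All 7 lay below 0, at a median of -0.98 against -0.51 for the other 44 (-1.23 and -0.70 without control replicate 2). The 7 have 1527 or more coding bases, whereas the other 44 include the 11 members with under 1000. Whether carrying snoRNA genes had a part in this was not tested. Libraries were built from mRNA, so the snoRNAs themselves were not analysed here. The exons of 15 members overlap a gene on the opposite strand, among them Tsr1 with Srr, Dkc1 with Mpp1, Nhp2 with Rmnd5b and Gnl3 with Pbrm1. The kit kept strand but the counting setting was not given in the sources used here, so reads of such pairs could not be told apart if strand was not used.

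Other genes of the pathway were counted from a list of 123, all of which were tested. Of these 11 fell and 1 rose, with a median log2 fold change of -0.42, and without control replicate 2 the counts were 38 and 12 and the median -0.52. Over all genes tested 4.63% were called lower and 1.98% higher, at a median of -0.18. Without control replicate 2 the all-gene values were 20.6%, 12.3% and -0.24. In RNA polymerase I transcription 1 of 14 fell, Taf1a of the promoter selectivity factor, which had 11.6, 9.38 and 10.7 FPKM in the controls, against 3.88, 3.42 and 3.70 FPKM after IGF1. Its controls lay together, and its log2 fold change was -1.31 (standard error 0.13, limma adjusted p = 0.0286), and -1.38 without control replicate 2. The median of these 14 was 0.34, and without control replicate 2 the small subunits Polr2f, Polr2k, Polr2l and Znrd1 rose (log2 fold changes 1.80, 1.76, 1.15 and 1.22).

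Among other snoRNP factors Shq1, the assembly chaperone of dyskerin, fell (log2 fold change -1.30, limma adjusted p = 0.0485). It had 17.0, 6.95 and 17.7 FPKM in the controls, against 4.65, 4.42 and 4.85 FPKM after IGF1, and its log2 fold change was -1.71 without control replicate 2. Of 10 listed genes 1 was called. Of 39 other 40S factors Pno1, Utp18 and Tbl3 fell, at -1.09, -1.02 and -1.13, and the median was -0.52. Of 60 other 60S factors 6 fell and 1 rose, at a median of -0.43. Exosc9 of the RNA exosome (-1.57), Las1l of the spacer cleavage complex (-1.37) and Nmd3, the export adaptor of the 60S subunit (-1.60), had the lowest adjusted p of those that fell. Gltscr2 rose, with 145, 240 and 146 FPKM in the controls, against 369, 359 and 359 FPKM after IGF1 (log2 fold change 1.07, limma adjusted p = 0.038), and 1.31 without control replicate 2.

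**Figure D5:**
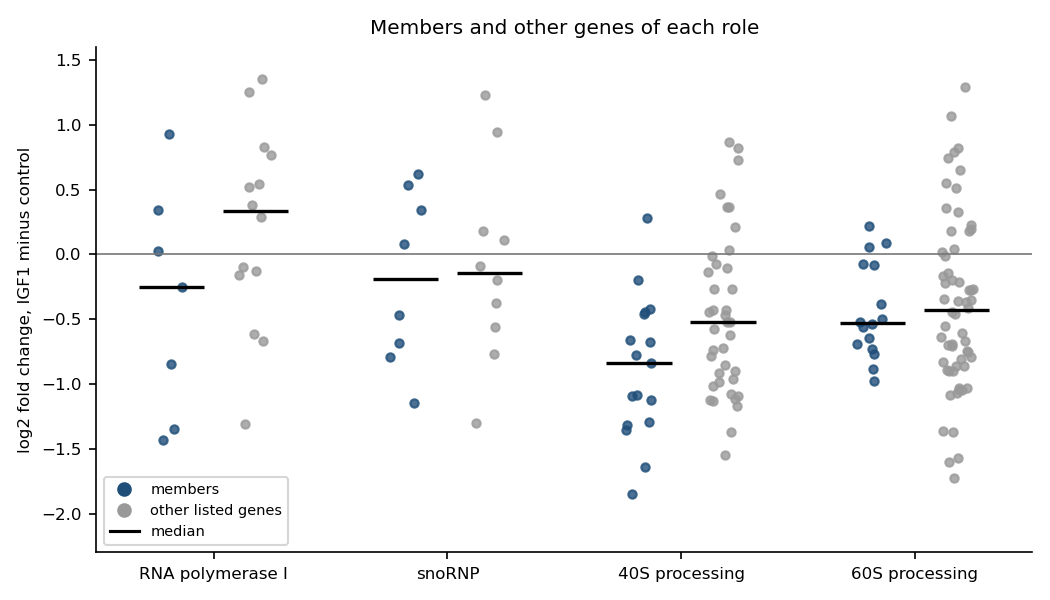
Log2 fold change, IGF1 minus control, of the members (blue) and of 123 other listed genes (grey) in 4 roles, with medians as black bars. Both sets have their lowest median in 40S processing, at -0.84 for members and -0.52 for the others, while the other RNA polymerase I genes have a median of 0.34.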

How the data were processed

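RNA-seq of sorted BM HSCs was analysed in 3 control and 3 IGF1 libraries. Per the labels and the study's methods, the authors used a TruSeq stranded mRNA kit and fastp. The labels list HISAT2, StringTie and GRCm38/mm10, while the methods name RSEM 1.2.12 and DESeq2, and which made these values was not given in the sources used here. The authors' deposited files hold a single value for each symbol, taken here as FPKM (fragments divided by transcript length and library size), under a header that names no unit. The reason was that what 1 read is worth falls with transcript length (Spearman's rho -0.78 over 14975 genes). The 10449 genes reaching 1 FPKM in 3 or more libraries were compared by limma (version 3.58.1, R 4.3.3; eBayes with trend, Benjamini-Hochberg over all genes) after taking log2(FPKM + 1), calls needing over 2-fold and an adjusted p under 0.05, and FPKM of single genes with 2-sided exact permutation tests. Depth came from values that are whole multiples of 1 step per gene (15640 of 15640 genes above 0, within 0.02 reads). Of the rows, 27 have names that look like dates and 4 share a symbol. Gene positions, lengths and GC content came from GENCODE on GRCm38, promoters from RefSeq GRCm38.p6. The fit and the depth recovery were tested on simulated data.

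Members, roles and lists were chosen with earlier results of these data known. Values per library are given for the called members, the 2 largest rises and falls per role, and 26 members fixed by the rule. Wdr43, Polr1e, Rrp12 and the turned members among the other 17 fall outside it. Other pathway genes were named up to 3 per direction and role by adjusted p, and the 4 small polymerase subunits after their values were seen. Alternatives were other scalings, filters, pseudocounts and thresholds, no variance trend, a replicate block and library weights. Trends on transcript length and GC content were also removed, and each library was left out in turn. Chosen after seeing the data were limma voom on recovered reads and 2 settings without control replicate 2.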

Additional observations from a re-analysis of the deposited data

How the results depend on the processing

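The counts changed whichever single library was left out. Leaving out 1 library at a time, 0 to 19 members were called lower, 0 to 1 higher and 0 to 3438 genes in all, against 6, 0 and 691 with every library. The highest counts were those without control replicate 2. Without any single library other than control replicate 2 limma called 0 members. At an unadjusted p under 0.05 limma then gave 12 to 14 members lower and 0 higher, where 28.5% to 30.7% of all genes passed in either direction. The members' median then ran from -0.57 to -0.41, and it was -0.85 without control replicate 2. Library weights gave 19 members lower, 1 higher and 3435 genes. The replicate numbers did not pair the samples (correlations of same-numbered deviations -0.057, -0.05 and 0.006), and a replicate block gave 0 members and 0 genes, with 25 members lower and 1 higher at an unadjusted p under 0.05, where 45.9% of all genes passed. Members called lower were 3 with 75th percentile scaling, 2 with TMM scaling, 3 (374 genes) with no filter, 2 (223 genes) with a pseudocount of 5, 2 (314 genes) with length and GC trends removed and 10 (2130 genes) with no fold threshold. A fold change over 1.5 gave 1646 genes, an unadjusted p 1743, and limma voom on recovered reads, added after seeing the data, 1059 genes with 5 members lower and 0 higher. Without control replicate 2, 75th percentile scaling gave 8 members lower, 4 higher and 3146 genes, and removal of length and GC trends 7 lower, 1 higher and 1926 genes, against 19 lower without either, both added after seeing the data.

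Among the named members signs turned as follows. Leaving out 1 library at a time, the log2 fold change ran from -0.001 to 0.06 for Ubtf, -0.079 to 0.175 for Ddx18 and -0.193 to 0.14 for Npm1, each turned without control replicate 2, and with library weights it was -0.007, -0.08 and 0.137. Quantile normalization gave 0.01 for Polr1a, -0.182 for Nop10 and 0.0 for Ddx21, and moved Npm1 to -0.87 (limma adjusted p = 0.0299). With 75th percentile scaling the values were 0.057 for Polr1a, 0.03 for Ncl, 0.27 for Npm1 and 0.028 for Ddx21, and without control replicate 2 as well 0.03, 0.025, 0.608 and 0.037. TMM scaling gave 0.077 for Npm1. With length and GC trends removed they were -0.151 for Fbl, -0.376 for Gar1, 0.128 for Nip7, 0.308 for Npm1 and 0.119 for Ddx21, and without control replicate 2 as well -0.227, -0.55, 0.36, 0.588 and 0.154. Of the other 17 members, Nol8 and Nop16 turned with 75th percentile and TMM scaling, Rrp9 with the former, Nol8 with quantile normalization, Nol10, Nol8 and Mrto4 with length and GC trends removed, and Nop16 without control replicate 2. Apart from the turns due to control replicate 2, the cause was not tested. Depth limits Tsr1 and Utp20 most, as the lowest of the named members.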
